A study of Homo sapiens with 4 samples.

Results

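Pericentromeric peaks are described here, the called binding regions that lie within 3 Mb of the centromere gap of an autosome. Every row of 4 deposited peak lists was kept when any part of it lay within 3 Mb of the gap on chromosomes 1 to 22 of GRCh37. This gave 2315 of 11483 peaks, or 20.2%. The gap edges used were rounded, so 92 of these peaks lay just inside an edge and were given a distance of 0.

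The peaks came from chromatin immunoprecipitation with sequencing in OECM1, a cell line established from a cancer of the head and neck, grown in RPMI medium with serum. The antibody was raised against ARID3B, which binds DNA through its AT-rich interaction domain, or against KDM4C, a demethylase of histone lysines. Both groups of cells carried Cas9, as a control in one and aimed at ARID3B in the other, called edited cells below. The sample titles call the edited cells a knockdown and the series title calls them a knockout. The amount of ARID3B left in them was not analysed here, and whether they came from 1 clone is not stated in the sources used here. Each of the 4 groups was 1 library, nothing says that the libraries came from separate cultures, and no difference between them has a replicate check. No p-value was computed, because peaks of 1 library are not replicates. Intervals are 95% and cover counting error only. They treat each peak as a separate count, although many pericentromeric peaks stand close together, so they may be too narrow.

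Centromeres are built on long arrays of alpha satellite, a short unit repeated in tandem, and the surrounding DNA holds other satellites and recent segmental duplications. A genome build shows the arrays as gaps with short stretches of repeat at their edges. Pericentromeric chromatin is classically heterochromatin that carries trimethylated lysine on histone H3, the kind of mark that the KDM4 family of demethylases removes. Sequences and genes of the regions are not given, because a genome and annotation of this build were not used here.

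The control and edited ARID3B libraries held 24439463 and 20878112 filtered tags, where a tag is a mapped read and the caller kept at most 1 per position. The KDM4C libraries held 20668533 and 16209985. The edited KDM4C library also had the shortest tags, at 72 bp against 75 bp, and the longest estimated fragment, at 95 bp against 79 to 86 bp. The lists held 3264, 4834, 1494 and 1891 peaks, and wherever 4 values are given they follow this order of control then edited cells, first for ARID3B and then for KDM4C.

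The first question was how much of each list lay beside a centromere. With the ARID3B antibody, 596 peaks of control cells were pericentromeric, or 18.3% (16.9 to 19.6, Clopper-Pearson), while edited cells had 792, or 16.4% (15.4 to 17.5). For KDM4C the shares were larger, at 474 peaks or 31.7% (29.4 to 34.2) in control cells and 453 peaks or 24.0% (22.05 to 25.9) in edited cells. The KDM4C shares were thus above both ARID3B shares in control and in edited cells, with intervals that do not meet. The KDM4C lists were also the shorter ones. With each list reduced to its 1494 highest-scoring peaks, the shares were 27.7% (25.5 to 30.1), 28.6% (26.4 to 31.0), 31.7% (29.4 to 34.2) and 27.0% (24.7 to 29.3). The edited KDM4C share was then below both ARID3B shares. Each KDM4C interval overlapped both ARID3B intervals, so the antibodies were no longer apart.

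The flank from 3 to 6 Mb, of the same nominal length, held 149, 248, 74 and 86 peaks. The inner 3 Mb therefore had 4 times (3.34 to 4.82), 3.19 times (2.77 to 3.70), 6.41 times (5.005 to 8.30) and 5.27 times (4.17 to 6.71) as many peaks as the flank. The peaks just outside the limit lay on chromosome 9 in all 4 lists, between 3.001 and 3.003 Mb, with fold enrichments of 5.36, 5.68, 9.08 and 6.90. Those just inside lay on chromosomes 16, 1, 17 and 8, with fold enrichments of 7.17, 13.1, 9.56 and 12.3. Fold enrichment is the height of a peak over the background that the caller took from the 10 kb around it.

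Peaks crowded against the gap edge. The innermost 0.25 Mb, peaks inside a rounded edge included, held 217, 259, 224 and 186 peaks, which is 36.4%, 32.7%, 47.3% and 41.1% of the pericentromeric peaks of each list. From 0.25 to 0.5 Mb there were 67, 90, 47 and 39, and from 2 to 3 Mb there were 90, 141, 49 and 70. In the innermost class the control KDM4C library, with fewer tags, had more peaks than the control ARID3B library, and in the other classes out to 6 Mb it had fewer. The short-arm and long-arm sides held 1253 and 1062 peaks over all autosomes and the 4 lists. Chromosomes 13, 14, 15 and 22 count in the long-arm number alone, with 16, 23, 48 and 43 peaks. On the other autosomes the sides were therefore further apart.

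**Figure D1:**
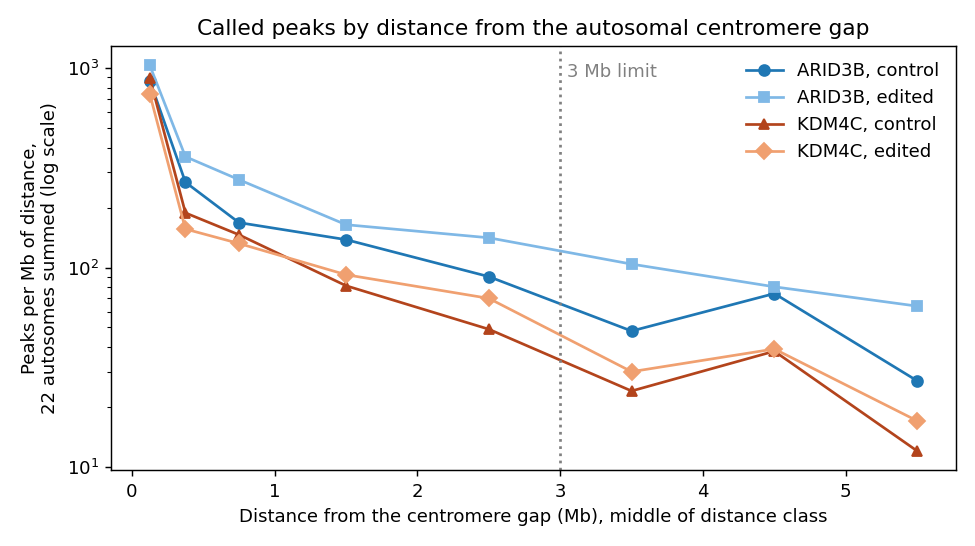
Number of called peaks per Mb of distance from the centromere gap (log scale), summed over 22 autosomes, against distance in Mb, with 1 line per library and the 3 Mb limit dotted. All 4 lines are highest in the innermost 0.25 Mb, where they hold 217, 259, 224 and 186 peaks.

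Pericentromeric peaks were wider and held more tags than other autosomal peaks of the same library. Their median length was 397, 322, 371 and 403 bp, against 281, 245, 254 and 280 bp elsewhere on autosomes. The median number of tags was 30, 22, 30.5 and 24 against 13, 11, 12 and 11. A width of at least 1 kb was reached by 15.6%, 10.98%, 15.6% and 19.4% of pericentromeric peaks, against 2.92%, 2.48%, 4.15% and 3.72% elsewhere. Each of these measures was thus larger near the centromere in every library.

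Scores, which are the log10 of the calling p-value times minus 10 and start at 50, were also higher. A score of at least 100 was reached by 180 pericentromeric ARID3B peaks in control cells (30.2%, 26.5 to 34.1) against 164 other autosomal peaks (6.56%, 5.62 to 7.61). The shares in the other lists were 27.0% against 4.73%, 37.6% against 11.5% and 34.2% against 8.38%. Read the other way, pericentromeric peaks made up 44.3%, 45.0%, 52.0% and 48.1% of all peaks with a score of at least 100. They made up 10.4%, 10.3%, 17.7% and 13.9% of those that scored under 60. Of the 11 peaks at the caller's highest score of 3100 over all lists, 9 were pericentromeric.

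Fold enrichment went the other way at the median. It was 7.96, 8.60, 9.03 and 9.57 for pericentromeric peaks and 8.85, 9.82, 9.56 and 10.5 for other autosomal peaks. The caller's local background, recovered from each tag count and score and given relative to the genome mean, had a median of 2.32, 2.28, 2.87 and 2.73 near centromeres and 1.17, 1.15, 1.21 and 1.20 elsewhere. A background of at least 5 times the genome mean was found at 23.5%, 22.7%, 33.7% and 29.6% of pericentromeric peaks, against 1.81%, 2.36%, 3.36% and 3.50%. The background was thus raised on the same side as the tag counts, and its part in the calls was not tested. A peak's own tags can raise its 10 kb background, and 45 of the 2315 peaks gave no value.

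Between 45.5% and 64.1% of all tags in peaks lay in pericentromeric peaks, although these were 16.4% to 31.7% of the peaks. In the order of the libraries the pericentromeric peaks held 69700, 74839, 61694 and 54507 tags, over 409, 434, 304 and 322 kb of called sequence. As a share of filtered tags this was 0.285%, 0.358%, 0.298% and 0.336%. The KDM4C peaks of edited cells thus held fewer tags than those of control cells but a larger share of their library, so the direction depends on division by depth.

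A single place had the most tags in all lists. A peak on chromosome 6, close to 20 kb from the short-arm edge of the gap, had 3437, 3484, 3656 and 3356 tags, the most of any autosomal peak in every library. Its fold enrichment was only 3.63, 3.66, 3.43 and 3.62, and in control ARID3B cells it ran from 58776073 to 58779885. Next in the KDM4C lists was a peak on chromosome 7 with 2806 and 2651 tags, from 61967153 to 61971381 in control cells. ARID3B peaks at this place held 2210 tags (control) and 2418 tags (edited). The region with the most tags was therefore not among those with the highest fold enrichment.

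Peaks that overlapped by at least 1 bp were merged over the 4 lists, which gave 1260 pericentromeric regions. Of all 9138 merged regions of the series 422 were called in all 4 libraries, or 4.62%. Of the pericentromeric regions 199 were, or 15.8% (13.8 to 17.9), against 150 of the 7503 other autosomal regions (2.00%, 1.69 to 2.34). Of the regions on X or Y, at any distance from a centromere, 73 of 375 were (19.5%, 15.6 to 23.8). That interval overlaps the pericentromeric one, so a high share was not particular to autosomal centromeres. Pericentromeric regions were thus 47.2% of the regions common to all libraries. Another 97 were called in 3 libraries, 152 in 2 and 812 (64.4%) in 1.

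Sharing was most frequent at the gap edge. Within 0.25 Mb of the gap 112 of 367 regions were called in all 4 libraries, or 30.5% (25.8 to 35.5). From 0.25 to 0.5 Mb 16 of 142 were (11.3%, 6.58 to 17.7), and from 2 to 3 Mb 19 of 232 (8.19%, 5.003 to 12.5). The 199 common regions had a median width of 690 bp, against 285 bp for regions of 1 library, and in 159 of them each library had a single peak. A merged region spans all of its peaks, so regions of more libraries tend to be wider by the merging alone. The common regions held 72.8%, 69.6%, 82.2% and 86.4% of the pericentromeric tags in peaks.

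The 12 common regions with the highest fold enrichment, ranked by the lowest of their 4 values, lay on 9 chromosomes, and 7 of them within 150 kb of the gap. The first was on chromosome 10, at chr10:42408024-42408562, 108 kb into the long arm. It had fold enrichments of 43.3, 47.3, 41.1 and 40.9 from 96, 96, 105 and 102 tags. The next, at chr2:92281173-92281621, 18.4 kb from the gap on the short arm, had 47.7, 50.5, 43.9 and 40.2 from 71, 79, 90 and 87 tags. All 4 libraries thus gave these regions similar numbers of tags, with the ARID3B folds above the KDM4C folds.

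The third region, at chr9:66970938-66971544, lay 1471 kb from the gap. It had the most tags of the 12, at 268, 272, 275 and 278, with fold enrichments of 36.6, 38.8, 37.6 and 34.6. The region at chr6:61913225-61913656 had values of 35.97, 38.4, 34.2 and 36.2 from 45, 38, 56 and 47 tags. The region at chr22:16861439-16861875 had 35.8, 39.0, 36.4 and 32.5 from 51, 65, 50 and 44 tags. The lowest of the 4 values dropped from 40.2 to 34.6 between the second region and the third, and only from 34.6 to 32.5 over the next ones.

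Further regions of the 12 were on chromosome 11 (55015016 to 55015323), chromosome 16 (35239436 to 35239917 and 33887450 to 33887963), chromosome 9 (66800545 to 66801037), chromosome 1 (121468023 to 121468270) and chromosome 12 (34846811 to 34847158 and 34841558 to 34842232). The region at chr16:35239436-35239917 showed the widest range, with fold enrichments of 41.6, 45.5, 34.97 and 28.95. Its tags were 36, 39, 45 and 39, so the order of the folds was not that of the tags. Its local background was 1.05, 1.33, 1.87 and 2.00 times the genome mean.

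**Figure D2:**
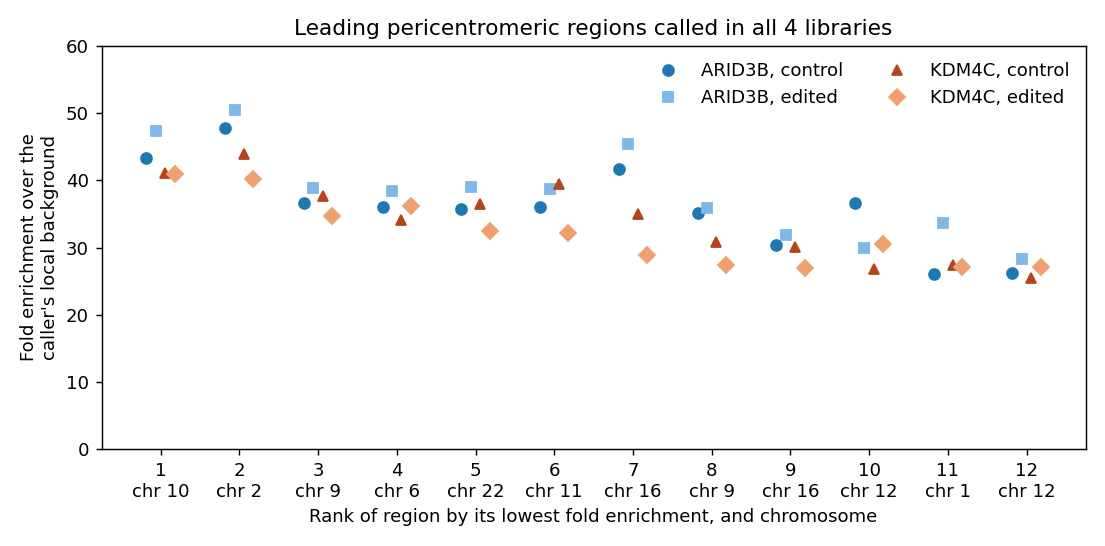
Fold enrichment (peak height over local background) for the 12 leading regions called in all 4 libraries, in rank order with their chromosome, with 1 point per library. The edited ARID3B value is above the control value in 11 of the 12 and the edited KDM4C value in 3.

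Edited cells had the higher fold enrichment at 11 of these 12 regions with the ARID3B antibody and at 3 with the KDM4C antibody. Over all 199 common regions it was higher in 133 with ARID3B and in 67 with KDM4C. At the 150 common regions elsewhere on autosomes it was higher in 109 and in 87. The undivided tags were higher in edited cells at 120 of the 199 with ARID3B and at 80 with KDM4C. Elsewhere these numbers were 69 and 78 of the 150. Local background was higher in edited cells at 170 of 186 regions with ARID3B and at 160 of 193 with KDM4C. Elsewhere it was higher at 96 of 140 and at 97 of 145. The part of the background in the folds was not tested.

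Summit height, the number of overlapping fragments at the peak's top, was recovered for all libraries in 183 of the 199 regions. As a description across these regions, Spearman's rho of the heights was 0.97 between control and edited cells for ARID3B and 0.96 for KDM4C. Between antibodies it was 0.94 in control cells and 0.97 in edited cells. At the 136 common regions elsewhere on autosomes, the same values were 0.84, 0.80, 0.81 and 0.82. The libraries share the sequence of each region, and no p-value is given.

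Undivided heights barely differed between control and edited cells, with a median log2 ratio of 0.02 for ARID3B and 0.03 for KDM4C. Per filtered tag the medians were 0.24 and 0.38, since the edited libraries were smaller by 0.23 and 0.35 on the log2 scale. With division by fragment length as well they were 0.37 and 0.16. In control cells the median log2 ratio of KDM4C to ARID3B height per filtered tag was 0.18 near centromeres, where KDM4C was higher at 122 of 183 regions. Elsewhere it was -0.09, with KDM4C higher at 50 of 136. In edited cells these medians were 0.33 and 0.17. With fragment length divided out as well, the medians near centromeres and elsewhere were 0.25 and -0.03 in control cells and 0.07 and -0.10 in edited cells. The median was thus higher near centromeres than elsewhere in both kinds of cells. Each scaling shifts both medians of a pair of libraries by the same amount, so it could not change this order.

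The next comparison asked which control peaks near centromeres had a counterpart in edited cells. Over the whole control ARID3B list 25.2% of peaks were. Of the pericentromeric peaks 339 of 596 were called again (56.9%, 52.8 to 60.9), against 368 of 2499 other autosomal peaks (14.7%, 13.4 to 16.2). For KDM4C the share over the whole list was 36.7%. Near centromeres it was 277 of 474 (58.4%, 53.9 to 62.9), against 179 of 867 elsewhere on autosomes (20.6%, 17.997 to 23.5). From edited to control cells, the ARID3B share was 340 of 792 (42.9%) near centromeres, with 17.3% over the list, and the KDM4C share was 257 of 453 (56.7%), with 27.7% over the list.

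Strong peaks were nearly always called again in both places. At a score from 200 upward, 81 of 81 control ARID3B peaks near centromeres and 62 of 62 elsewhere were called again. Among those that scored under 60, 51 of 193 peaks near centromeres (26.4%, 20.4 to 33.2) and 74 of 1617 elsewhere (4.58%, 3.61 to 5.71) were called again. For KDM4C the shares under 60 were 29 of 134 (21.6%, 14.9985 to 29.6) and 24 of 590 (4.07%, 2.62 to 5.99). From 60 to 100 they were 49.8% against 20.8% for ARID3B and 49.4% against 33.3% for KDM4C. Under a score of 60 the intervals near centromeres and elsewhere do not meet for either antibody. Peaks also lay closer together near centromeres, where the edited lists covered 434 kb with ARID3B and 322 kb with KDM4C, and the part of this density in the shares was not tested.

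**Figure D3:**
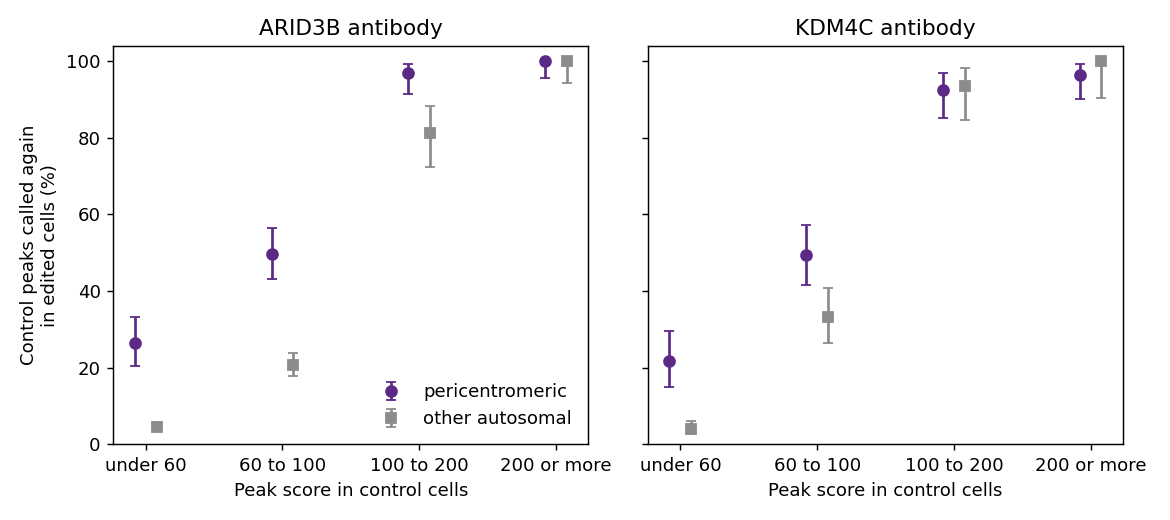
Percent of control peaks called again in edited cells with the same antibody, by class of peak score, for pericentromeric and other autosomal peaks, with exact 95% intervals. Among peaks that score under 60 the pericentromeric points lie at 26.4% and 21.6%, above 4.58% and 4.07% for other autosomal peaks.

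Near centromeres 257 ARID3B peaks were called in control cells alone, and 3 of them reached a score of 100. Another 452 were called in edited cells alone, and 17 reached it. The control-only peaks with the highest fold enrichment were chr20:26315260-26315646 (18.2), chr14:19005085-19005295 (15.4) and chr8:46898259-46898514 (15.4). KDM4C was called at all 3 in control cells. The leading edited-only peaks were chr12:40203783-40203903 (22.9), chr7:57997229-57997488 (19.1) and chr3:90403076-90403275 (18.01), and each overlapped KDM4C peaks of control and of edited cells.

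For KDM4C, 197 control peaks near centromeres had no counterpart in edited cells, 10 of them with a score of at least 100. In edited cells 196 had no counterpart in control cells, 8 of them with such a score. The leading control-only peaks were on chromosome 8, from 43760605 to 43760766 (18.1), from 46898314 to 46898511 (18.1) and from 43092756 to 43093074 (17.8), and the ARID3B antibody called each of them in control cells. The leading edited-only peak, on chromosome 9 from 67000912 to 67001358 (19.3), was called in that library alone. The next, on chromosome 12 from 38036750 to 38036982 (18.98) and chromosome 9 from 66978410 to 66978860 (18.3), were also called with ARID3B in edited cells. These 12 leading peaks lay at 11 places, since the chromosome 8 peaks near 46898259 are the same place, and all but that on chromosome 9 from 67000912 overlapped a peak of the other antibody in the same cells. Most other such peaks had no such overlap. Over all ARID3B peaks called in 1 kind of cells alone, a KDM4C peak of the same cells overlapped 31 of 257 in control cells (12.1%, 8.34 to 16.7) and 56 of 452 in edited cells (12.4%, 9.50 to 15.8). The reverse shares for KDM4C were 56 of 197 (28.4%, 22.2 to 35.3) and 67 of 196 (34.2%, 27.6 to 41.3). Over the whole lists these shares were 17.8% and 14.3% for ARID3B and 39.3% and 35.2% for KDM4C. Both edited-cell intervals include the share over their list. Over all pericentromeric peaks the shares were 47.5% and 39.8% for ARID3B and 61.2% and 65.8% for KDM4C.

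The number of pericentromeric peaks moved differently with the antibodies. For ARID3B the ratio of edited to control peaks was 1.33 (1.19 to 1.48, exact binomial), against 1.51 (1.44 to 1.59) for the other autosomal peaks. For KDM4C it was 0.956 (0.838 to 1.09), against 1.49 (1.36 to 1.62). The KDM4C ratio near centromeres was 0.643 times that elsewhere (0.549 to 0.753, conditional exact interval), and for ARID3B this factor was 0.877 (0.779 to 0.989). Set against each other, the KDM4C ratio was 0.719 times the ARID3B ratio near centromeres (0.606 to 0.853) and 0.982 times elsewhere (0.887 to 1.09). Divided by filtered tags the ratios near centromeres were 1.56 for ARID3B and 1.22 for KDM4C, so the KDM4C value changed its side of 1. With lists of equal length they were 1.03 (0.901 to 1.19) and 0.850 (0.743 to 0.973).

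By score, the ARID3B ratio near centromeres was 1.58 (1.32 to 1.90) for peaks under 60 and 1.19 (0.971 to 1.46) for those of 100 or more. For KDM4C it was 1.12 (0.881 to 1.42) and 0.871 (0.698 to 1.09). The factor between near centromeres and elsewhere was 0.746 (0.573 to 0.971) for KDM4C under 60, and 0.998 (0.821 to 1.21) for ARID3B. For peaks of 100 or more it was 0.807 (0.561 to 1.16) for KDM4C and 1.09 (0.806 to 1.47) for ARID3B. Both intervals at 100 or more include 1. By distance, the KDM4C ratio was 0.830 (0.680 to 1.01) in the innermost 0.25 Mb and 1.43 (0.978 to 2.102) from 2 to 3 Mb. The ARID3B ratio was 1.19 (0.993 to 1.44) and 1.57 (1.19 to 2.06) in these classes. Each interval of a KDM4C ratio near centromeres here includes 1, and the difference between the classes was not tested.

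The antibodies were then compared within each kind of cells. In control cells 290 of the 474 pericentromeric KDM4C peaks overlapped an ARID3B peak (61.2%, 56.6 to 65.6), with 39.3% over the whole list and 206 of 867 (23.8%, 20.96 to 26.7) elsewhere on autosomes. In edited cells 298 of 453 did (65.8%, 61.2 to 70.1), with 35.2% over the list and 261 of 1289 (20.2%, 18.1 to 22.5) elsewhere. The intervals for control and edited cells overlap near centromeres. At a score of 200 or more every KDM4C peak overlapped an ARID3B peak, both near centromeres (85 of 85 in control and 73 of 73 in edited cells) and elsewhere on autosomes (37 of 37 in each). Under 60 the shares were 26.1% and 30.7%, against 7.29% and 7.11% elsewhere.

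There were 0.795 KDM4C peaks (0.703 to 0.899) for each ARID3B peak near centromeres in control cells, and 0.572 (0.508 to 0.643) in edited cells. Elsewhere on autosomes these values were 0.347 and 0.341. Of the 152 pericentromeric regions called in exactly 2 libraries, 64 had the same antibody in both kinds of cells, 50 had both antibodies in the same cells and 38 had neither in common. Elsewhere on autosomes these numbers were 139, 61 and 51. In 48 pericentromeric regions (3.81%) ARID3B was called in both kinds of cells and KDM4C in neither, against 131 regions elsewhere (1.75%). The reverse held in 16 (1.27%) and 8 (0.107%).

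These regions held few tags. The leading ARID3B region of this kind, chr20:26317985-26318185, had fold enrichments of 15.4 and 15.1 from 13 and 10 tags. The others of the 3 leading ones, on chromosome 7 (57949248 to 57949491) and chromosome 6 (64423251 to 64423675), had 14.1 and 14.7, and 14.1 and 11.5. The leading KDM4C region of this kind, on chromosome 12 from 38047551 to 38047677, had 14.3 and 15.8 from 9 tags in each list. Those that followed, on chromosome 7 (62000582 to 62000956) and chromosome 12 (37871407 to 37871659), had 12.7 and 13.5, and 14.3 and 12.3. All 6 regions rest on 9 to 15 tags a library, and the smallest peaks of the lists hold 9 or 10.

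Chromosomes differed widely. Over the 4 lists, chromosome 1 had the most pericentromeric peaks, at 64, 92, 45 and 34. It was followed by chromosome 16 (56, 68, 42 and 44), chromosome 9 (46, 70, 38 and 44), chromosome 2 (59, 61, 36 and 29) and chromosome 7 (46, 49, 35 and 30). These 5 held 42.7% of all pericentromeric peaks. The fewest were on chromosome 13 (4, 6, 1 and 5), chromosome 14 (4, 7, 7 and 5) and chromosome 3 (8, 17, 8 and 6). The totals of chromosomes 16, 9 and 2 were close, at 210, 198 and 185.

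**Figure D4:**
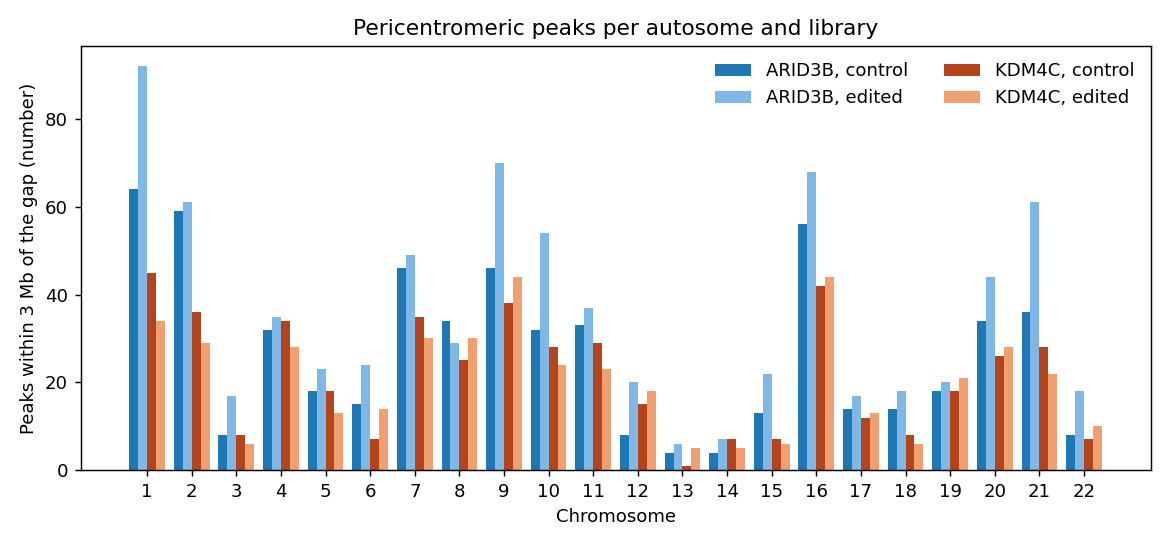
Number of called peaks within 3 Mb of the centromere gap on each autosome, with 1 bar per library. Chromosome 1 has 64, 92, 45 and 34 peaks and chromosome 13 has 4, 6, 1 and 5.

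Most peaks of chromosome 21 were pericentromeric, at 69.2%, 74.4%, 93.3% and 88.0%, and 131 of its 147 pericentromeric peaks over the 4 lists lay on the short-arm side. On chromosome 16 the shares were 33.5%, 31.5%, 55.3% and 48.4%, and on chromosome 20 they were 37.8%, 32.6%, 59.1% and 44.4%. Chromosome 3 had 4.79%, 7.23%, 13.6% and 7.32%. Other chromosomes were lopsided too, with 123 short-arm against 6 long-arm peaks on chromosome 4, 162 against 23 on chromosome 2 and 164 against 46 on chromosome 16. The long arm had more on chromosome 10 (101 against 37) and chromosome 19 (57 against 20). Chromosomes 13, 14, 15 and 22 had no short-arm peak within 3 Mb, and how much short-arm sequence the build holds there was not examined here.

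Regions of all 4 libraries were found on 21 of the 22 autosomes, chromosome 13 being the exception. Chromosome 16 had the most, at 25 of 107 regions (23.4%, 15.7 to 32.5). Chromosome 19 had the highest share, at 11 of 32 (34.4%, 18.6 to 53.2), followed by chromosome 4 with 14 of 47 (29.8%) and chromosome 8 with 14 of 48 (29.2%). Chromosome 15 had 1 of 42 (2.38%, 0.0603 to 12.6) and chromosome 6 had 2 of 48 (4.17%). The intervals of chromosomes 19 and 15 do not meet, and those of chromosomes 19, 4 and 8 overlap.

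From control to edited cells, the number of pericentromeric ARID3B peaks was higher on 21 of 22 autosomes and lower on chromosome 8 (34 and 29). The interval left out 1 on 5 of them: chromosomes 1 (1.44, 1.03 to 2.01), 9 (1.52, 1.03 to 2.26), 10 (1.69, 1.07 to 2.701), 12 (2.5, 1.05 to 6.56) and 21 (1.69, 1.10 to 2.63). These intervals are not adjusted for 22 chromosomes and treat neighbouring peaks as separate counts. For KDM4C the pericentromeric number was higher on 10 and lower on 12, and no interval left out 1. On the rest of the chromosome the KDM4C number was lower on chromosomes 7 and 15 alone. These are undivided numbers. Divided by filtered tags, the pericentromeric ARID3B number was higher in edited cells on 21 autosomes and the KDM4C number on 17. Still no pericentromeric KDM4C interval left out 1.

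The ratio beside the centromere could differ from that of the same chromosome's arms. On chromosome 18, ARID3B peaks went from 14 to 18 within 3 Mb of the gap (1.29, 0.604 to 2.79) and from 12 to 70 on the rest of the chromosome (5.83, 3.14 to 11.8), and these intervals do not meet. On chromosome 13 they went from 4 to 6 (1.5, 0.356 to 7.23) and from 29 to 182 (6.28, 4.22 to 9.64), and these intervals overlap. On chromosome 7 they went from 46 to 49 (1.07, 0.698 to 1.63) and from 197 to 140 (0.711, 0.568 to 0.887), with overlap again. For KDM4C, chromosome 1 went from 45 to 34 peaks near the gap (0.756, 0.469 to 1.21) and from 110 to 186 elsewhere (1.69, 1.33 to 2.16), and these intervals do not meet. Chromosome 18 for ARID3B and chromosome 1 for KDM4C were the only autosomes on which they did not.

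**Figure D5:**
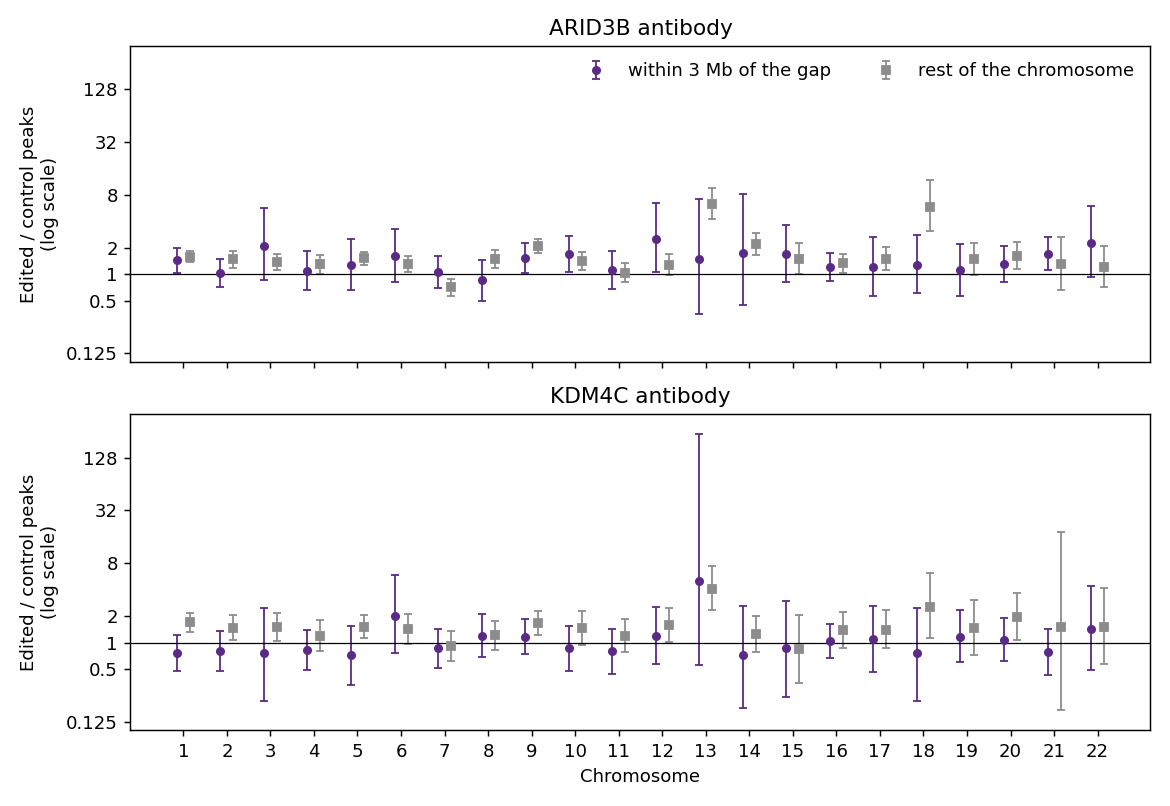
Ratio of edited to control peak numbers on each autosome (log scale) for peaks within 3 Mb of the gap and for the rest of the chromosome, with exact 95% intervals, for ARID3B above and KDM4C below. On chromosome 18 the ARID3B ratio is 1.29 near the gap and 5.83 elsewhere, and the long KDM4C interval on chromosome 13 comes from 1 control peak.

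Many of these peaks stood in dense runs. The median gap to the next peak of the same list was 16.2, 19.96, 11.6 and 22.1 kb near centromeres, against 465, 310, 1421 and 959 kb elsewhere on autosomes. When pericentromeric peaks of all lists were chained wherever at most 10 kb separated them, 710 runs resulted, and 415 of these were single peaks. The 47 runs of at least 10 peaks held 43.8% of all pericentromeric peaks, and each of them had peaks of all 4 libraries. They lay on 18 chromosomes, and 25 of them lay within 250 kb of the gap.

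The largest run, on chromosome 2 from 92256420 to 92326189, touched the gap and held 12, 15, 11 and 11 peaks. On chromosome 4, a run from 49262027 to 49338866 held 13, 14, 11 and 7. A run on chromosome 11 from 51568826 to 51591636, 8.36 kb from the gap, held 12, 13, 11 and 8 within 22.8 kb. Chromosome 1 had runs from 121352114 to 121386706 (9, 13, 11 and 8 peaks) and from 121407369 to 121485491 (12, 9, 12 and 8). Each of these runs had peaks from every library, and in all 5 the edited KDM4C library had the fewest peaks or tied for it. That library also had the fewest filtered tags. The order did not hold in every further run, as on chromosome 4 from 49093195 to 49158615 (9, 7, 13 and 9 peaks).

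The widest merged region was in the first of these runs, on chromosome 2 from 92317018 to 92326189, at 9172 bp. It held 1311, 3076, 3729 and 1457 tags with fold enrichments of 3.80, 5.83, 3.43 and 3.52. The second widest, at 6953 bp, was on chromosome 17 from 22255957 to 22262909 (763, 1039, 802 and 1661 tags). The last of the 5 widest, at 6402 and 5779 bp, were on chromosome 4 from 49119961 to 49126362 (1043, 1186, 1114 and 890 tags) and chromosome 1 from 142535484 to 142541262 (448, 513, 157 and 223 tags). The third widest, chr4:49108652-49115196 at 6545 bp, had peaks of the control libraries alone, with 1612 ARID3B and 942 KDM4C tags. Its local background was 23.5 and 20.5 times the genome mean in these libraries.

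Each remaining chromosome also had a leading region, ranked by the lowest of its values, which was below that of the 12. On chromosome 19, a region from 27804652 to 27805028 had 28.5, 31.7, 23.0 and 24.3. On chromosome 20, from 26305572 to 26305962, the values were 21.8, 26.1, 24.6 and 21.4. Chromosome 8 led with 49466071 to 49466439 (19.3, 20.1, 21.3 and 19.8), chromosome 5 with 49460611 to 49460899 (17.6, 24.4, 20.3 and 27.3), and chromosome 21 with 10818668 to 10820360 (16.2, 17.3, 20.8 and 20.1). The last of these held 364, 406, 228 and 292 tags, while the region on chromosome 5 held 15 to 20.

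Chromosome 4 led with 49657119 to 49660119 (15.8, 16.5, 18.5 and 16.1), chromosome 7 with 61055112 to 61056004 (15.2, 15.5, 15.5 and 17.9) and chromosome 3 with 90457129 to 90457538 (13.95, 20.4, 21.3 and 17.7). On chromosome 14, 1.78 kb from the gap, a region from 19001782 to 19002199 had 20.6, 17.7, 13.6 and 15.6. Chromosome 17 led with 25263060 to 25268302 (11.96, 13.6, 16.1 and 11.6), chromosome 15 with 20025666 to 20025979 (10.0, 15.8, 16.9 and 19.9) and chromosome 18 with 18515320 to 18520480 (10.1, 10.1, 9.78 and 8.61). On chromosome 13 the leading region, from 20371162 to 20371627, had 13.2, 24.2 and 10.5 and was not called in the control KDM4C library. No library had the highest value at all of these regions.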

How the data were processed

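Peaks were called by the authors with MACS 1.4.2 for each library without a control library, per the file headers, with p set to 1e-05, the genome size to 2.7 Gb and the background window to 10 kb. The submitters' processing notes name GRCh37, bcl2fastq 2.1.5 and BWA 0.7.12. The deposited tag counts are whole tags per peak. The deposited score is minus 10 times log10 of the p-value, and the deposited fold enrichment is the authors' ratio to the caller's local background. Fold enrichment was used to describe and rank peaks and regions, to compare lists region by region, and to recover summit heights.

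Members were found by the distance of a peak to the gap of its autosome. Overlaps needed at least 1 bp. Intervals were computed with scipy 1.17.1. Local background was solved from the Poisson tail of tags and score. Values under 0.97 times the genome mean, which the caller cannot give, were dropped. Recovered heights were whole within 0.05 for 86.5% to 91.9% of pericentromeric peaks. Overlap, membership and background steps were tested on simulated data.

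Named regions followed a rule: the 12 leading regions of all 4 libraries, the leading region of each autosome, the 3 leading peaks of each list or antibody alone, and the 5 widest. Members and rules were chosen with earlier results of these data known. Alternatives were a score of at least 100, a 1 Mb window, lists of equal length, 50% overlap, removal of the fullest autosome and division by filtered tags, the last added for single autosomes after seeing the data. No gene was named, since an annotation of this build was not used here.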

Additional observations from a re-analysis of the deposited data

Results flagged for a closer look

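On 13 of the 22 autosomes the number of pericentromeric peaks moved in opposite directions with the antibodies from control to edited cells. The difference was not tested on any of them, each ratio rests on 1 library per group, and the numbers are not divided by depth. Divided by filtered tags, the directions were opposite on 6 autosomes: chromosomes 1, 3, 5, 14 and 18, and chromosome 8 with an ARID3B ratio of 0.998. In undivided numbers, on 12 the ARID3B number was higher and the KDM4C number lower in edited cells. Chromosome 1 had an edited to control ratio of 1.44 for ARID3B and 0.756 for KDM4C, and in the same order chromosome 2 had 1.03 with 0.806. The ratios were 2.13 with 0.750 on chromosome 3, 1.09 with 0.824 on chromosome 4 and 1.28 with 0.722 on chromosome 5. Chromosome 7 had 1.07 with 0.857, chromosome 10 had 1.69 with 0.857, and chromosome 11 had 1.12 with 0.793. Chromosome 14 had 1.75 with 0.714, chromosome 15 had 1.69 with 0.857, chromosome 18 had 1.29 with 0.750, and chromosome 21 had 1.69 with 0.786. Chromosome 8 went the other way, at 0.853 for ARID3B and 1.2 for KDM4C. All 13 KDM4C intervals included 1.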

How the results depend on the processing

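Of 54 recomputed values 27 stayed within the main 95% interval (for counts of autosomes, within 1.5 times) and 27 moved beyond it. Leaving out chromosome 1, which held the most members, and asking for 50% overlap moved none. At a score of at least 100 the pericentromeric shares of the lists (ARID3B control, ARID3B edited, KDM4C control, KDM4C edited) were 44.3%, 45.0%, 52.0% and 48.1%. The ARID3B ratio of edited to control peaks was then 1.19, with an interval that includes 1. Control peaks called again were 85.6% for ARID3B and 74.7% for KDM4C, KDM4C peaks with ARID3B 76.4% in control and 87.7% in edited cells, and regions in all 4 libraries 41.6%. Within 1 Mb the shares of the lists were 11.3%, 10.1%, 23.0% and 15.4%, ARID3B peaks called again 65.8% and regions in all 4 libraries 20.2%. With lists of equal length the shares were 27.7%, 28.6% and 27.0% for the lists other than control KDM4C. The ARID3B ratio was then 1.03, ARID3B peaks called again 63.0%, control KDM4C peaks with ARID3B 54.4% and regions in all 4 libraries 21.8%. Divided by filtered tags the ratios were 1.56 for ARID3B and 1.22 (1.07 to 1.39) for KDM4C, and the KDM4C value thereby turned from below 1 to above it. On this scale, tried for single autosomes after seeing the data, KDM4C peaks were more numerous in edited cells on 17 autosomes in place of 10. The antibodies moved in opposite directions on 6 in place of 13. The cause of these shifts was not tested. No paired analysis was possible because each group had 1 library. The smallest peaks held 9 or 10 tags, so few tags lie behind each weak call.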

Other observations

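Dense runs differed in how alike their tag numbers were between lists, as 3 of them show. On chromosome 10 from 42384193 to 42409575, the lists in the order used above had 4, 7, 5 and 3 peaks over 4.74, 9.37, 7.03 and 2.09 kb, with 2457, 5343, 3140 and 644 tags. On chromosome 8 from 43812265 to 43838891 they had 8, 7, 4 and 4 peaks over 9.97, 6.37, 9.17 and 4.88 kb, with 3120, 1792, 3076 and 1241 tags. A run on chromosome 7 from 61967122 to 62000956 had 6 peaks in each list and 2885, 2865, 3042 and 2866 tags. These 3 runs were chosen after their values were seen.

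Near centromeres 97 regions were called in exactly 3 libraries, and the edited ARID3B library was the missing one in 8. The control ARID3B library was missing in 25, the control KDM4C library in 35 and the edited KDM4C library in 29. Elsewhere on autosomes the missing library was edited ARID3B in 8 of 97, control ARID3B in 9, control KDM4C in 50 and edited KDM4C in 30. The edited ARID3B list was the longest of the 4.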
